A study of Mus musculus with 11 samples.

Results

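Wnt proteins are secreted, lipid-modified ligands that bind Frizzled receptors on the cell surface. Together with the co-receptors Lrp5 and Lrp6 they stop the cytoplasmic Axin complex from degrading β-catenin, which then acts with TCF/LEF factors on target genes. Secreted Frizzled-related proteins and Dickkopf proteins restrain the pathway outside the cell, and R-spondins, through the Lgr4, Lgr5 and Lgr6 receptors, raise the amount of Frizzled at the membrane. In the pancreas this signalling is known for its part in progenitor growth and in the expansion of acinar tissue. DNA methylation at the CpG-rich start of a gene commonly goes with silencing, whereas methylation further into the gene need not.

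The genes described here are the Wnt ligands, Frizzled receptors, Lrp5 and Lrp6, Sfrp, Dkk and Rspo modulators, Lgr4 to Lgr6 and the Axins, chosen by symbol on chromosomes 1 to 19. They comprise 49 of the 25802 genes measured and 44 of the 24391 promoters. By role there were 19 ligands, 10 Frizzled receptors, 2 co-receptors, 4 secreted Frizzled-related proteins, 4 Dickkopf genes, 4 R-spondins, 3 R-spondin receptors and 2 Axins. The remaining 1, Rspo4os, is an antisense transcript lying inside Rspo4 on the opposite strand and is taken up only because its symbol begins like a Rspo gene. Wnt8b, Wnt16, Dkk4, Lgr6 and Rspo4os had gene values but no promoter values. All 44 promoters and all 49 genes could be tested for treatment, and 43 promoters and 48 genes for sex. The Wnt10a promoter and the Dkk4 gene had values in only 2 males.

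Reduced representation bisulfite sequencing (RRBS), which reads methylation at CpG sites near MspI and TaqI cuts, was performed on the pancreas of 11 wild-type C57BL/6N mice at postnatal day 0. Dams received amphetamine at 10 mg/kg on embryonic days 14.5, 15.5 and 16.5, or saline, and their pups made up an amphetamine group of 5 mice (3 females, 2 males) and a control group of 6 mice (3 females, 3 males). Regrouped by sex, the same animals gave 6 females and 5 males. The litters of the pups were not given in the labels, so the tests measure only the spread between these mice. Values were deposited as group means, SDs and the lowest and highest mouse, so the mean stands below where a value per mouse would stand. Whole pancreas mixes cell types, and a different share of cells cannot be told apart from different methylation within a cell type.

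At the promoters of the pancreatic transcription factor genes Pdx1 and Ptf1a, control methylation was 3.25% ± 3.51 and 3.56% ± 2.82 (SD). Other marker genes of the same cell types had higher levels, several with a wide spread between mice. The promoters of the acinar enzyme genes Cela1 and Pnlip were at 90.3% ± 15.3 (coverage 16.3) and 85% ± 33.5. That of Cel was at 57.2% ± 21.6. The bodies of Cela1 and Cpa1 were at 48.5% ± 6.57 and 58.2% ± 32.9. The promoter of the glucagon gene Gcg was at 90.0% ± 22.4 (coverage 25.7), and the insulin gene Ins2 at 85.8% ± 11.9 along its body. The B cell gene Cd79a was at 82.5% at its promoter and 26.8% along its body. The leukocyte genes Ptprc and Spi1 were at 50.3% and 53.1% along theirs, and the cardiac myosin gene Myh6 at 81.3%. These levels describe the DNA of the whole organ and were not used to name a cell type. Mean coverage of the Wnt-family promoters ran from 14.7 to 1002 in controls and from 9.8 to 1018 after amphetamine, and was higher after amphetamine at 40 of 44, with a median ratio of 1.20.

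The promoters of these genes were nearly free of methylation. Each promoter interval spans 2000 bp, from 1500 bp before to 500 bp after the gene start. The median over the 44 promoters was 2.46% in controls, against 6.57% over all 23009 autosomal promoters with values. In controls 37 of 44 (84.1%) lay under 5%, compared with 45.7% of all autosomal promoters and 73.2% of those over a CpG island. Of the 44, 41 (93.2%) overlapped a CpG island, against 55.4% of all autosomal promoters, and island promoters as a class had a median of 2.62%. They held a median of 103 CpG sites, compared with 86 in all autosomal island promoters. The promoters without an island were those of Wnt8a, Dkk1 and Dkk3.

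**Figure D1:**
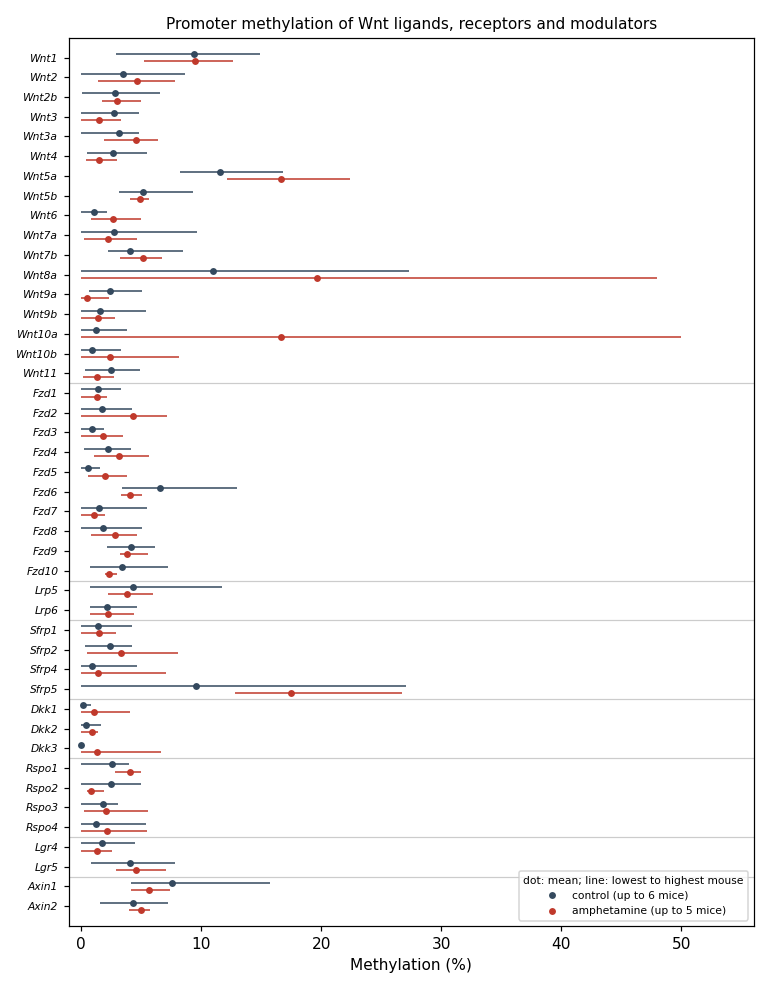
Promoter methylation in percent (x axis) for each of the 44 genes (y axis, grouped by role and separated by grey lines); dots are group means and lines run from the lowest to the highest mouse, controls in blue and amphetamine in red. Most means lie under 5%, while Wnt1, Wnt5a, Wnt8a and Sfrp5, and Wnt10a after amphetamine, stand to the right of the rest.

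Among the ligands, Wnt5a, which acts largely through β-catenin-independent signalling, had the highest promoter level in controls, 11.6% ± 3.11 (8.26 to 16.8%, n = 6). At the CpG island over the Wnt5a gene start, controls were at 1.25% ± 2.43. Wnt1, the founding member of the family, was at 9.41% ± 4.56 (n = 6) and Wnt8a at 10.98% ± 13.4 (n = 4, coverage 28.2). Wnt7b, a ligand of the developing pancreatic epithelium, was at 4.06% ± 2.31 and Wnt4 at 2.66% ± 1.91. The control ranges of Wnt5a, Wnt8a and Wnt1 overlapped, as did those of Wnt7b and Wnt4 (2.21 to 8.45% and 0.47 to 5.53%), whereas every control was higher at Wnt5a than any was at Wnt4. The 17 ligand promoters had a median of 2.73%, with the lowest, Wnt10b, at 0.90%.

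The 10 Frizzled promoters had a median of 1.79%. Fzd6 was highest at 6.54% ± 3.45 and Fzd5 lowest at 0.58% ± 0.64. The co-receptors were at 4.36% ± 3.98 (Lrp5) and 2.21% ± 1.68 (Lrp6). All 10 receptor promoters and both co-receptor promoters overlapped an island.

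Promoters of the secreted inhibitors spanned the range. Dkk3, Dkk1 and Dkk2, of which Dkk1 and Dkk2 bind Lrp5 and Lrp6, were the lowest of all members with a coverage of at least 10, at 0.00%, 0.14% ± 0.34 and 0.41% ± 0.69. Sfrp5 was at 9.59% ± 11.1 and Sfrp1 at 1.41% ± 1.63. Dkk3 had values in 4 controls at a coverage of 23.7, so its level was measured less precisely than most.

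The R-spondin promoters lay between 1.23% and 2.62%, with Rspo3 at 1.87% ± 1.12. Among their receptors, Lgr4 was at 1.76% ± 1.78 and Lgr5, a marker of stem cells in several epithelia, at 4.06% ± 2.30. Axin1 and Axin2, the scaffolds of the degradation complex, were at 7.60% ± 4.44 and 4.36% ± 2.07. Axin2 is itself a target gene of the pathway.

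RefSeq promoter windows on GRCm38.p6, 250 bases before to 50 after the annotated start, were matched for 30 of the 49 genes. Shown are those with the most methylated matched promoters over the 2000 bp interval, Sfrp5 and Wnt1. Wnt4 and Fzd7, in which a difference between the sexes is described further on, are shown too. The displayed Wnt1 bases lie within a CpG island at 1.38% ± 1.71 in controls, against 9.41% over the interval. Those of Sfrp5 partly overlap an island at 2.98% ± 2.41 in controls, against 9.59%. CpG sites, the only positions at which methylation was read, are in capitals. Each run is written 5′ to 3′ along the gene's strand, covering chr19:42202203-42202502 (minus), chr15:98789607-98789906 (plus), chr4:137277385-137277684 (plus) and chr1:59481897-59482196 (plus).
Sfrp5: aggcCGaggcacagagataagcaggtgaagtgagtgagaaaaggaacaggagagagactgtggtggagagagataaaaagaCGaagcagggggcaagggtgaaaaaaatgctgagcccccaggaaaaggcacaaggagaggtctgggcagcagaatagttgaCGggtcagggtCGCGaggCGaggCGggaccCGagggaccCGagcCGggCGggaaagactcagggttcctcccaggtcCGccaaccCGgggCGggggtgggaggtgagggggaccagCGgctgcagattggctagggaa
Wnt1: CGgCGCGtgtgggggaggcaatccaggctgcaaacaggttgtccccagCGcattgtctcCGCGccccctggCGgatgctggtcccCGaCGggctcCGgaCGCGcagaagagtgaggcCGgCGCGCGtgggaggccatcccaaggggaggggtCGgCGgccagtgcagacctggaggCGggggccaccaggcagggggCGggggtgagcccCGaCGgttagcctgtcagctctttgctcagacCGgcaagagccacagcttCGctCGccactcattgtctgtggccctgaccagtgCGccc
Wnt4: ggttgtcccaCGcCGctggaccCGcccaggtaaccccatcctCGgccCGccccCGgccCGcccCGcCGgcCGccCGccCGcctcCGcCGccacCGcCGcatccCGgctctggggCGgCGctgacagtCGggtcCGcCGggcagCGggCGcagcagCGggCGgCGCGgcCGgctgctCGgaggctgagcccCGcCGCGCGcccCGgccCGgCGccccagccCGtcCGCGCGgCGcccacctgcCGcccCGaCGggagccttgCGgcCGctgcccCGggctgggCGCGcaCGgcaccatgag
Fzd7: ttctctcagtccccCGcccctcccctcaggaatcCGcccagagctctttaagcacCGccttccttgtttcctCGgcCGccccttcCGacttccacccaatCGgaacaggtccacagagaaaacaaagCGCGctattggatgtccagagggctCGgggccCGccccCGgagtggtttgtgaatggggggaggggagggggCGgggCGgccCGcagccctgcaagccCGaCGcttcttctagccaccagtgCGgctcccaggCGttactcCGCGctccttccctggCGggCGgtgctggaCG

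Over these 300 bases Sfrp5 held 15 CpG sites, Wnt1 26, Wnt4 51 and Fzd7 24. The median over 31396 RefSeq entries on the autosomes was 7. The Wnt4 window was the densest of the displayed sequences and had 8 MspI sites (ccgg), against 2 in Sfrp5, 3 in Wnt1 and 1 in Fzd7.

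The TCF/LEF words CTTTGAA and CTTTGAT, which share their first 6 letters, were searched on both strands of the deposited 2000 bp promoter intervals. At least 1 was present in 18 of 44 promoters (40.9%), compared with 48.0% of all autosomal promoters and 44.2% of those over an island. Dkk1 held 4 and Axin2 and Wnt8a 3 each. A match of letters is not a bound site.

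The first comparison asks whether amphetamine before birth went with different promoter methylation. No promoter of these genes passed the test at an adjusted p under 0.05 (limma, two-sided, Benjamini-Hochberg over all promoters tested). The background was 0.00439% of 22801 autosomal promoters. At an unadjusted p under 0.05 there was 1 of 44, against 4.1% of autosomal promoters, and the groups did not overlap at 0 of the 40 promoters with values in all mice, against 0.407%. Group means were higher after amphetamine at 28 promoters and lower at 16, against 11092 higher and 11353 lower over all autosomal promoters. The median difference was 0.48 percentage points, and the median absolute difference of 0.977 compared with 1.68 over all autosomal promoters.

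The promoter under an unadjusted p of 0.05 was that of Wnt5a (chr14:28503250-28505249, mm10). It was at 16.6% ± 3.88 after amphetamine (12.2 to 22.4%, n = 5) and at 11.6% ± 3.11 in controls (8.26 to 16.8%, n = 6). The groups overlapped, with the highest amphetamine value in a female. The difference was 5.04 points with a 95% interval of 0.46 to 9.62, and its adjusted p was 0.958. The CpG island over the gene start (chr14:28504711-28504984), within this promoter interval, was at 2.86% ± 2.69 and 1.25% ± 2.43. Its difference was 1.61 points (-1.70 to 4.92).

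At the Sfrp5 promoter, a secreted inhibitor, methylation was 17.5% ± 5.41 after amphetamine (12.9 to 26.7%, n = 5) and 9.59% ± 11.1 in controls (0 to 27.1%, n = 6). The highest control exceeded every amphetamine mouse, the difference of 7.88 points had an interval of -3.86 to 19.6, and the adjusted p was 0.958. Coverage there was 165 after amphetamine and 55.5 in controls, the part of which in the difference was not tested. At Wnt8a the means were 19.6% ± 23.8 and 10.98% ± 13.4 (n = 4 each), with a difference of 8.63 points at an interval of -21.7 to 39.0.

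Wnt10a had the largest difference of means, 16.7% ± 28.9 against 1.28% ± 2.22 (n = 3 each). It rested on a coverage of 9.8 and 14.7, with mice from 0 to 50% after amphetamine, and the interval ran from -24.0 to 54.8 points. Its neighbour Wnt6, which ends 6193 bp before Wnt10a begins, was at 2.63% ± 1.72 and 1.04% ± 1.0 at its promoter.

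For most promoters the data bounded the difference closely in percentage points, though not relative to their low levels. In 35 of 44 the whole 95% interval lay within 5 percentage points of 0, and in 42 within 25 points. The exceptions to the latter were Wnt8a and Wnt10a. Over all autosomal promoters the counts were 8819 and 17991 of 22801. In controls 37 of 44 members lay under 5%, so that 5 points exceed the level of most. At Lrp6 the difference was 0.03 points with an interval of -2.27 to 2.34, at Lgr4 -0.45 (-2.63 to 1.72) and at Rspo3 0.20 (-2.14 to 2.53). Axin2, the pathway target, differed by 0.67 points (-1.64 to 2.98) and Axin1 by -1.91 (-6.48 to 2.66). For Dkk1 the difference was 0.98 points (-0.84 to 2.80), for Lrp5 -0.51 (-4.72 to 3.70), for Lgr5 0.55 (-2.22 to 3.33) and for Wnt7b 1.13 (-1.53 to 3.79).

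**Figure D2:**
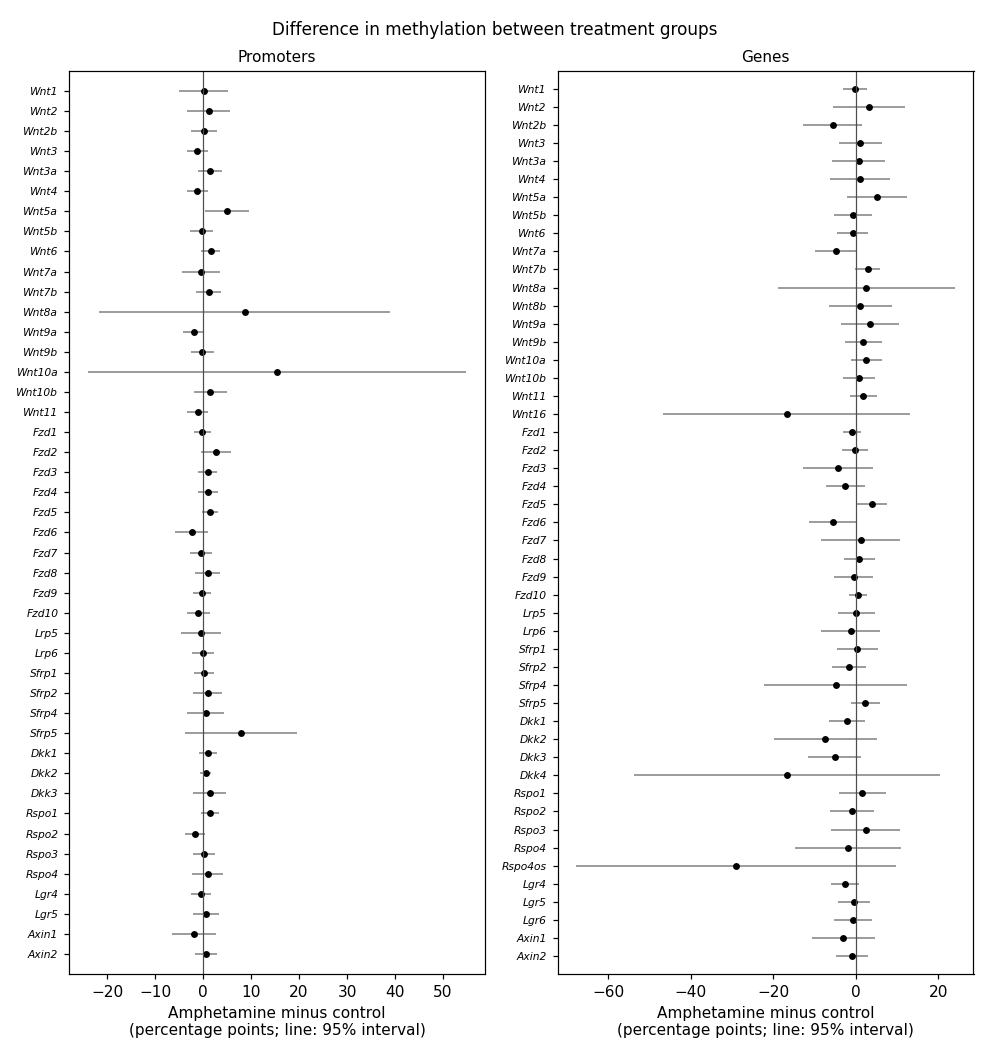
Difference in methylation, amphetamine minus control, in percentage points (x axis) for the 44 promoters (left) and 49 genes (right); dots are differences of group means and lines 95% intervals, and the panels have different x scales. Nearly all promoter intervals are short and cross 0, and the widest belong to Wnt8a and Wnt10a on the left and to Wnt16, Dkk4 and Rspo4os on the right.

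Across the gene body the family was far less uniform. Gene methylation in controls ran from 1.04% (Sfrp5) to 100% (Dkk4, n = 3, coverage 10.7), with a median of 31.7% over the 49 genes, against 51.2% over all 24436 autosomal genes with values. Wnt2b reached 65.2% ± 5.80 and Lgr5 63.5% ± 2.53, whereas Wnt1 was at 2.23% ± 2.19 and Wnt10a at 3.33% ± 2.16. The ranges of the first pair of genes over mice (57.8 to 72.2% and 60.6 to 66.5%) were clear of those of the second (0 to 5.53% and 0.56 to 6.05%).

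Levels were also set beside gene structure. The 6 Frizzled genes with a single exon (Fzd1, Fzd2, Fzd7, Fzd8, Fzd9 and Fzd10) lay between 3.04% and 17.2%, while the 4 with several exons (Fzd3, Fzd4, Fzd5 and Fzd6) lay between 10.7% and 47.7%, so that the ranges overlapped. Both long co-receptor genes were near the middle of the scale, Lrp5 at 52.4% ± 3.67 and Lrp6 at 49.8% ± 5.41. Over the 49 genes Spearman's rho between length and control methylation was 0.55, and between CpG density and methylation -0.73. Over all autosomal genes the values were 0.05 and -0.35. These describe genes that share the same mice and base composition, not independent replicates.

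**Figure D3:**
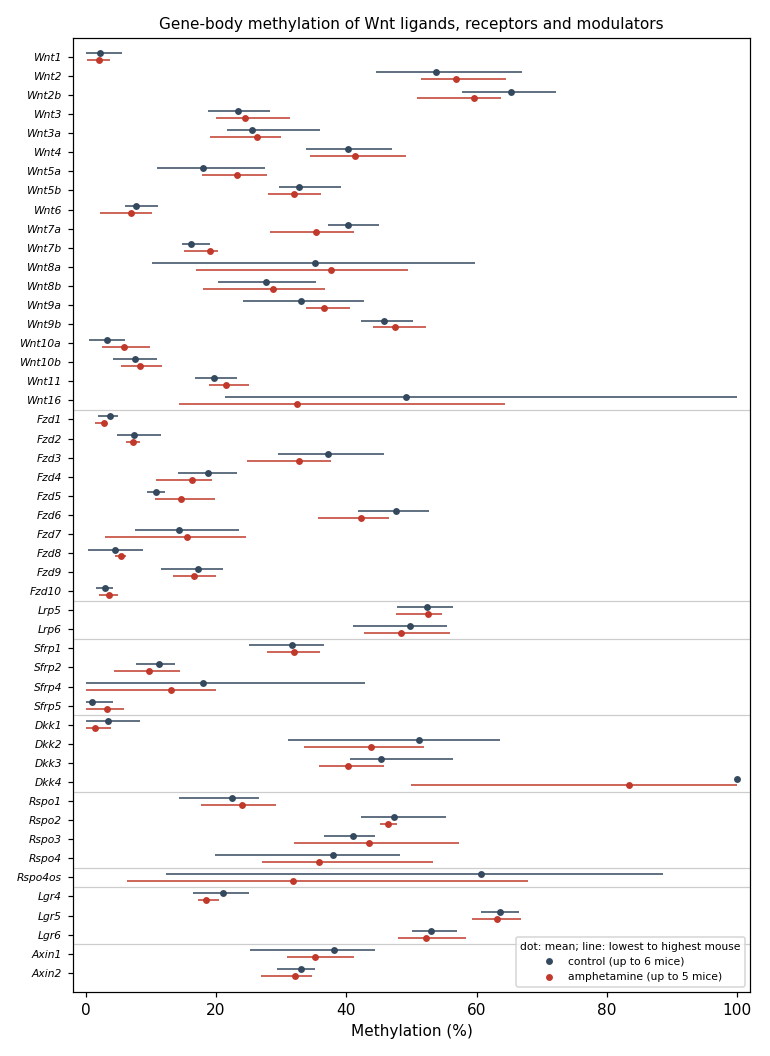
Gene-body methylation in percent (x axis) for the 49 genes (y axis, grouped by role); dots are group means and lines run from the lowest to the highest mouse, controls in blue and amphetamine in red. The single-exon Frizzled genes sit at the left, Lgr5 and Wnt2b to the right of most genes, and the longest lines include those of Wnt16, Dkk4 and Rspo4os.

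The low methylation was held near the gene start. Non-overlapping regions of 5000 bp whose centres lay 0 to 5 kb into the gene had a control median of 6.93% (37 regions), against 27.6% around all autosomal genes. Regions 5 to 10 kb in had a median of 64.8% (27 regions), compared with 80.8%. At 10 to 20 kb the medians were 78.0% and 82.4%, and at 40 to 80 kb 82.6% and 83.3%. Upstream, regions centred 5 to 10 kb before the start were at 71.6%, and those within 5 kb of it at 9.44%. At 80 to 160 kb, reached only by long genes, they were 70.9% (33 regions) and 84.0%. The difference from other genes is given as a description, without a test. Of the member promoters 93.2% overlapped a CpG island, against 55.4% of all autosomal promoters. The profile was not set beside genes with island promoters alone.

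**Figure D4:**
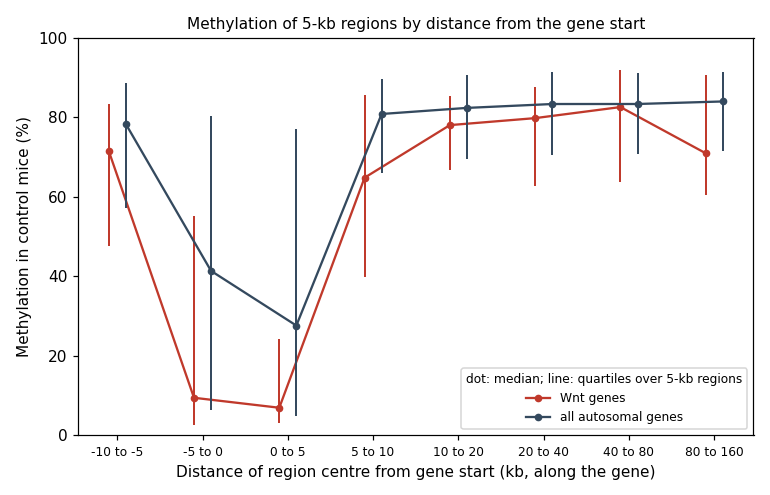
Control methylation in percent (y axis) of 5000 bp regions by the distance of their centre from the gene start in kb (x axis, bins of unequal width); dots are medians and lines quartiles, Wnt-family genes in red and all autosomal genes in blue. Both series dip at the start, to 6.93% and 27.6% in the bin from 0 to 5 kb, and return to high levels beyond 10 kb.

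In the comparison of treatment groups over gene bodies, 0 of 49 genes passed at an adjusted p under 0.05, and the background was 0% of 24314 autosomal genes (limma, two-sided). At an unadjusted p under 0.05 there was 1 member against 4.39% of autosomal genes, and 0 of the 47 genes with values in all mice had groups that did not overlap, against 0.322%. Means were higher after amphetamine in 22 genes and lower in 27, with a median difference of -0.33 points. Over all autosomal genes they were higher in 11579 and lower in 12522. The 95% interval lay within 25 points of 0 in 46 of 49 genes, and within 5 points in 10. The exceptions to the former were Wnt16, Dkk4 and Rspo4os. Over all autosomal genes the counts were 20767 and 3685 of 24314.

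The gene under an unadjusted p of 0.05 was Fzd5, a receptor for several canonical ligands (chr1:64730558-64737751, mm10). It was at 14.6% ± 3.69 after amphetamine (10.6 to 19.8%, n = 5) and 10.7% ± 1.0 in controls (9.40 to 12.2%, n = 6), with an adjusted p of 0.985. The control mice lay close together, and their range overlapped the lower part of the amphetamine range. The Fzd5 promoter island, which reaches into the coding exon (chr1:64734848-64737979), was at 11.9% ± 2.95 and 8.64% ± 1.26, with an adjusted p of 0.921. The gene and the island share CpG sites and count as 1 observation.

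Wnt5a, the ligand with the highest promoter level in controls, was at 23.2% ± 4.09 and 18.05% ± 6.67 over its body, a difference of 5.14 points (-2.22 to 12.5). The differences in Wnt4 (1.04 points, -6.30 to 8.39), Wnt7b (2.84, -0.12 to 5.80) and Fzd7 (1.17, -8.37 to 10.7) also had intervals that included 0. Dkk1 differed by -2.09 points (-6.48 to 2.30) and Dkk2 by -7.40 (-19.9 to 5.06). For Dkk3 the difference was -5.16 (-11.6 to 1.26) and for Dkk4 -16.7 (-53.7 to 20.4), without any of the 4 passing the test. The means of the 3 Dickkopf promoters were instead higher after amphetamine.

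The largest differences of gene means had wide spreads between mice. Rspo4os was at 31.8% ± 29.1 after amphetamine and 60.7% ± 29.4 in controls (n = 5 each, coverage 52.6 and 39.0), and RRBS reads of this antisense transcript are also reads of Rspo4, which was at 35.9% ± 10.7 and 37.9% ± 9.61. Wnt16 was at 32.4% ± 19.3 and 49.2% ± 26.8. For Dkk4 the means were 83.3% ± 28.9 and 100% (n = 3 each).

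CpG islands that overlap the promoters were also compared, some of which reach well into the gene. There were 42 islands over 41 member promoters, with a control median of 2.06% and a highest level of 8.64%. The highest was that of Fzd5, whose promoter interval was at 0.58%. The Fzd2 island had the same control mean as the Fzd2 gene, 7.49%. Of the 42 islands 41 were tested for treatment and 0 passed at an adjusted p under 0.05, against 0.00699% of 14315 autosomal islands. At an unadjusted p under 0.05 there were 2 (4.14% of autosomal islands), Fzd5 as above and Wnt9a, at 0.46% ± 1.04 and 2.44% ± 1.77. The Wnt9a promoter interval had the same means and SDs, with an unadjusted p of 0.0648 in its own fit (limma). The Wnt9a island and promoter therefore count as 1 observation. The groups did not overlap at 0 of 39 islands with values in all mice (0.447% of autosomal islands).

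A further 28 islands lay elsewhere in 18 of the genes, a set looked at after the values were seen. Their control median was 3.42%, and most of them lay in ligand genes. Yet 5 exceeded 50%, all of them in coding exons of Wnt ligand genes. These were in Wnt3a (97.5% ± 5.85), Wnt3 (96.0% ± 5.39), Wnt7a (91.8% ± 7.68), Wnt4 (90.9% ± 5.77) and Wnt5a (68.5% ± 36.2). In Wnt3a and Wnt3 these islands lay 40.9 and 38.4 kb from the start. The promoters of the same 5 genes were between 2.66% and 11.6%.

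In a coding exon of Wnt6 (chr1:74782670-74783024) an island was at 9.72% ± 9.15 after amphetamine (0 to 19.9%) and 40.7% ± 16.7 in controls (13.8 to 57.7%, n = 5 each). The ranges overlapped and the adjusted p was 0.921. A Wnt3 exonic island (chr11:103811333-103811622) was at 85.4% ± 10.5 in 4 amphetamine mice and 33.3% ± 28.9 in 3 controls, at a control coverage of 12.8 and with the same adjusted p. Neither island had a value in every mouse.

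Over the 291 regions of 5000 bp that touched a member gene or promoter, 288 were tested for treatment and 0 passed at an adjusted p under 0.05, against 0.00891% of 235682 autosomal regions. At an unadjusted p under 0.05 there were 11, of which 8 were higher and 3 lower after amphetamine (4.41% of autosomal regions). The groups did not overlap at 0 of 229 regions (0.353%). The smallest p belonged to a region in Lrp6 (chr6:134540001-134545000), at 73.3% ± 11.6 and 95.9% ± 6.90, with coverage of 17.0 and 18.7. A region in Wnt5a (chr14:28510001-28515000), downstream of the promoter interval, was at 17.0% ± 4.17 (12.1 to 22.8%) and 6.59% ± 4.79 (2.64 to 13.3%). Both had an adjusted p of 0.965.

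The second comparison asks where females and males differed. At promoters 0 of 43 passed at an adjusted p under 0.05 (0.0395% of autosomal promoters), 3 had an unadjusted p under 0.05 (4.59%) and 0 of 40 had groups that did not overlap (0.462%). The 3 were Wnt4, Fzd7 and Rspo4. Wnt4, a ligand best known for its role in female gonad and kidney development, was at 0.99% ± 0.53 in females (n = 6) and 3.47% ± 1.41 in males (n = 5), with an adjusted p of 0.377. Fzd7 was at 2.21% ± 1.74 and 0.23% ± 0.31, and Rspo4 at 0.39% ± 0.50 and 3.15% ± 2.89, with adjusted p-values of 0.812 and 0.816.

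In the island table the Wnt4 promoter island (chr4:137276783-137278126, mm10, which begins before the gene start and overlaps UTR and coding sequence) passed the test. It was at 1.14% ± 0.59 in females (0.40 to 1.97%, n = 6) and at 3.36% ± 0.74 in males (2.58 to 4.55%, n = 5). No female overlapped a male. The difference was -2.22 points with a 95% interval of -3.20 to -1.23, and the adjusted p was 0.0487. Coverage was similar, at 647 in females and 637 in males. The RefSeq window printed above lies wholly within this island.

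This call was marginal. It came from a fit and adjustment over all chromosomes, in which 162 of 14698 islands passed for sex, 16 of them on autosomes. With only autosomes in the fit the adjusted p of the Wnt4 island was 0.455. Over the alternative settings it ran from 0.0442 to 0.455. The 5000 bp region around it (chr4:137275001-137280000) had the same mean, SD and range in each sex, and in the fit of that table its adjusted p was 0.911. The tables differ both in the variance shared between regions and in the number of regions adjusted over, and the parts of these were not tested.

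At the Fzd7 promoter island (chr1:59481952-59483937) females were at 2.07% ± 1.35 (0.42 to 4.38%) and males at 0.01% ± 0.02 (0 to 0.04%). The sexes did not overlap, but the adjusted p was 0.366, and coverage was 712 and 521. The islands of Wnt7b (3.10% ± 0.49 and 1.77% ± 0.84), Sfrp2 (1.78% ± 1.28 and 4.21% ± 1.58) and Rspo4 (0.40% ± 0.51 and 3.23% ± 2.95) completed the 5 of 42 with an unadjusted p under 0.05, against 4.77% of autosomal islands. Calls at an adjusted p under 0.05 made up 0.112% of autosomal islands, and 0.492% of islands had sexes that did not overlap, as did 2 of 39 here.

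**Figure D5:**
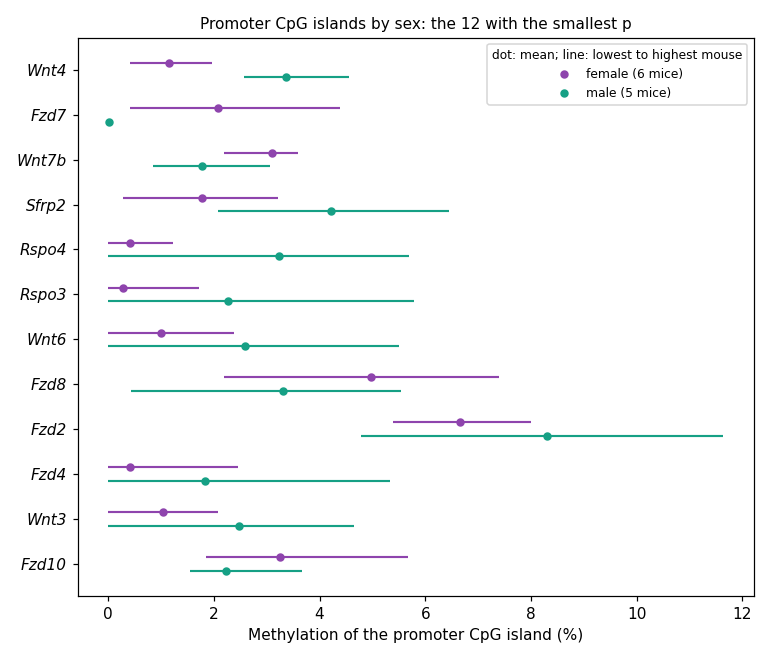
Methylation in percent (x axis) of the 12 promoter islands with the smallest p for sex (y axis); dots are means and lines run from the lowest to the highest mouse, 6 females in purple and 5 males in green. Only in Wnt4, with males higher, and Fzd7, with females higher, do the lines of the sexes not overlap among the islands drawn.

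Over gene bodies 0 of 48 passed for sex (0.0371% of autosomal genes), 2 had an unadjusted p under 0.05 (5.49%) and 0 of 47 did not overlap (0.449%). Sfrp1, a secreted inhibitor that binds Wnt proteins, was at 34.2% ± 1.93 in females and 29.0% ± 2.75 in males (32.0 to 36.7% and 25 to 32.4%), with an adjusted p of 0.421. Wnt2b was at 59.6% ± 5.65 and 66.3% ± 4.30, with an adjusted p of 0.763. The ranges of the sexes overlapped in both genes.

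Among the 5000 bp regions 285 were tested for sex and 0 passed at an adjusted p under 0.05 (0.017% of autosomal regions), 15 had an unadjusted p under 0.05 (5.26%), 9 of them higher in females, and 3 of 229 did not overlap (0.469%). A region at the 3′ end of Wnt11 (chr7:98855001-98860000, overlapping the UTR and otherwise beyond the gene) was at 72.9% ± 4.15 in females (70.0 to 81.0%) and 89.8% ± 2.41 in males (86.3 to 93.0%), with an adjusted p of 0.0506. A region in Axin2 (chr11:108930001-108935000, with coding exons) was at 81.6% ± 6.31 (71.4 to 91.2%) and 59.4% ± 9.06 (50 to 70.5%), with an adjusted p of 0.318. The region that completed the 3 was that around the Wnt4 start.

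Other genes of the pathway, 56 in a list of secretion factors, further receptors and modulators, cytoplasmic components and nuclear factors, were counted in the same way. Of 53 promoters tested for treatment 0 passed at an adjusted p under 0.05, against 0.00439% of autosomal promoters. At an unadjusted p under 0.05 there were 2 (3.77%, against 4.1% of autosomal promoters). They were Btrc, a ubiquitin ligase subunit that recognises β-catenin (18.3% and 12.8%), and Tcf7l1, a nuclear repressor (4.60% and 7.81%). Of 56 genes tested 0 passed, as for 0% of autosomal genes. The secreted inhibitor Frzb alone had an unadjusted p under 0.05 (40.4% and 47.6%), a share of 1.79% against 4.39% of autosomal genes. For sex the promoter and the body of the X-linked glypican gene Gpc4 passed, at 35.9% ± 7.63 in females and 2.28% ± 2.81 in males for the promoter (adjusted p = 0.00288) and 49.7% ± 3.44 and 33.4% ± 5.06 for the body (adjusted p = 0.0245). Over all chromosomes 135 of 23884 promoters (0.565%) passed for sex, of which only 9 were on autosomes. Likewise 94 of 25478 genes (0.369%) passed, of which 9 were on autosomes. Most sex calls therefore lay off the autosomes, and the pooled shares understate how common such calls are for an X-linked gene. No other gene of the list passed. At an unadjusted p under 0.05 for sex there were 2 of 53 promoters (3.77%), both X-linked, and 3 of 56 genes (5.36%). Over all chromosomes there were 1446 of 23884 promoters and 1654 of 25478 genes.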

How the data were processed

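RRBS libraries from the pancreas of 11 newborn mice were processed by the authors in a Nextflow pipeline with Bismark on mm10, and then with RnBeads, and limma and methylKit are also named in the submitters' processing notes. The deposited tables hold, per promoter, gene, CpG island or 5000 bp region, each group's mean, SD, lowest and highest methylation as a fraction (0 to 1), multiplied by 100 here. Mean, lowest and highest coverage per group are also deposited, as a read signal not normalised for depth, and so is the number of mice without a value. Values per mouse were not analysed here, total reads are unknown, and no counting interval was formed. Columns of the authors' own comparison (differences, log quotients, p-values and ranks) were not used, nor were 16 columns that count mice above a coverage threshold.

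Regions with values in at least 3 mice per group were tested between groups with limma 3.58.1 (R 4.3.3), its empirical Bayes variance being computed from the group SDs. Tests were two-sided, on percent methylation and without covariates, with Benjamini-Hochberg adjustment over all regions of a table. The fit was tested on simulated data. Background shares are over autosomes unless stated. Intervals are 95%.

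Members and lists were chosen with earlier results of these data known. Named were genes with an unadjusted p under 0.05 or separate groups, the 3 largest treatment differences per table and the 6 highest and 3 lowest control promoters (coverage of at least 10), 13 pathway genes whatever their values, and genes lacking values; islands and 5000 bp regions were chosen after their values were seen. Exons are from GENCODE M21, sequences from RefSeq (GRCm38.p6), and CpG counts from the GRCm38 genome. Alternatives changed the coverage, mice, chromosomes, variance model, scale or SD required.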

Additional observations from a re-analysis of the deposited data

How the results depend on the processing

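The treatment comparison gave 0 calls at an adjusted p under 0.05 in all 4 kinds of region under every alternative run. Leaving out single mice was not run, since values per mouse were not analysed here, and no paired analysis was possible because the columns carry no replicate numbers. The alternatives reused the deposited group means, so the Wnt4 island difference of -2.22 points between the sexes could not change in percent. Its adjusted p was 0.0525 with a coverage of at least 10, 0.0908 with values in all 11 mice and 0.455 with autosomes only. It was 0.249 with a variance trend and 0.147 with SDs above 0. Promoter islands called for sex were accordingly 0 under those 5 settings, against 1, and 2 on the arcsine square root scale, where Fzd7 also passed (adjusted p = 0.0113). Values on the arcsine scale were approximated from group means and SDs, not transformed for each mouse. That approximation is unreliable near 0%, where the Fzd7 males lay (0.01% ± 0.02), so the Fzd7 call on that scale is not relied on. For the 5000 bp regions by sex, 1 was called, against 0, on the arcsine scale and with 2 mice per group, and this was Wnt11 (adjusted p = 0.0363 and 0.0346).

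Counts at an unadjusted p under 0.05 moved by more than 1.5 times as follows. On the arcsine scale they were 3 for promoters by treatment (against 1), 5 for promoters by sex (against 3), 1 for genes by sex (against 2), 8 for islands by sex (against 5), and 21 and 28 for 5000 bp regions by treatment and sex (against 11 and 15). With a variance trend they were 2 for promoters and 2 for genes by treatment, 1 for genes by sex, and 1 for islands by treatment (against 2). With SDs above 0 they were 1 for promoters by sex, 0 for genes by treatment and 1 for islands by treatment, which was also 1 with values in all 11 mice. The cause of these shifts was not tested. The Dickkopf promoter median was 0.63% over both treatment groups, against 0.14% in controls. All settings used the same group means, so the sign of a difference could not change and its constancy says nothing about robustness. Of 925 other values for named genes, islands and regions, 922 kept their side of the threshold.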
